A study of Mus musculus with 14 samples.

Results

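Potassium channel genes were taken as every gene whose symbol starts with Kcn in the comparison table of the spleen or of the ovary. They numbered 81 of the 20139 genes listed in either table. The gene group was chosen by the fall of *Kcnj5* in spleens without ZFP36L2. The *Kcnj5* values of the spleen are therefore a description without a p-value, and its call there is no test result. Nothing is read from the number of members that changed in that tissue. Of the 81 members, 52 were listed for the spleen and 75 for the ovary, with 46 in both tables, 6 in the spleen table only and 29 in the ovary table only. By symbol they fell into 36 pore-forming (alpha) subunits of voltage-gated channels, 11 auxiliary subunits of those channels, 11 inward rectifiers, 8 subunits of the Kcnk family, 12 calcium- or sodium-activated channels with their auxiliary subunits, and 3 non-coding transcripts (*Kcnab3os*, *Kcnd3os* and *Kcnq1ot1*). A further 18 Kcn genes of the annotation were in neither table. One of them was *Kcnj6*, with 6 reads over the 8 spleens.

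The 14 libraries of poly(A) RNA each came from 1 animal: 4 wild-type spleens, 4 L2-fKO spleens, 3 wild-type ovaries and 3 L2-fKO ovaries. L2-fKO mice (L2-cKO in the sample labels) were Zfp36l2-/-;CMV-Cre. Their loxP sites flank exon 2 of *Zfp36l2*, and the CMV promoter drives Cre early in the embryo, so the deletion is in all tissues and not in 1 cell type. Wild-type littermates kept both copies of *Zfp36l2* and also carried Tg.CMV-Cre. The animals were neonatal pups. The spleens came from age-matched pairs, and the labels give no age for any animal. By label, the wild-type spleens came from 2 females and 2 males and the L2-fKO spleens from 1 female and 3 males, and all ovaries are from females. The spleen libraries are labelled as spleen organoid. L2-fKO spleen 3 and L2-fKO ovary 1 came from the same animal.

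Potassium channels let potassium ions leave or enter the cell along their gradient and so set the resting membrane potential. Voltage-gated channels open when the membrane depolarises, inward rectifiers pass current best near the resting potential, Kcnk channels carry a background leak, and calcium-activated channels couple the potential to the calcium signals of blood and muscle cells. Auxiliary subunits carry no current of their own and change how much pore-forming subunit reaches the membrane and how it gates. ZFP36L2 is an RNA-binding protein that recognises adenine-uridine-rich elements in 3′UTRs and promotes decay of the mRNA.

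The depth was 39138010 to 45167464 counts per spleen library and 31052510 to 44270070 reads per ovary library, the latter recovered from the normalised values. *Zfp36l2* itself checked the labels. Its normalised count was 5739 ± 1419 in the wild-type spleens against 339 ± 52.9 in those of L2-fKO (SD, n = 4 each), and 4840.0 ± 84.0 against 926 ± 145 in the ovaries (SD, n = 3 each). In both tissues every L2-fKO library was below every wild-type library. Markers of both tissues were present: the 10 erythroid markers summed to 8887 to 15820.0 RPM over the spleens, and the 8 oocyte markers to 2771 to 3480.0 over the ovaries. Levels are given either as normalised counts, which compare libraries of 1 tissue, or as RPM, the reads per 1000000 reads on the genes listed in both tables, divided by exon length in kilobases (RPM per kilobase) where genes are compared with each other. To be called higher or lower, a gene had to pass an adjusted p (Benjamini-Hochberg) of 0.05 with a log2 fold change beyond 1 in either direction.

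The sequence that ZFP36L2 binds was looked for first. Using 1 annotated 3′UTR per gene, the longest (GENCODE M21, GRCm38), the 7-base motif UAUUUAU was found in 24 of the 78 members that had a 3′UTR, or 30.8%, against 28.8% of all 16084 listed genes that had one. None of the 4 members called higher in the spleen had the motif, and neither did *Kcnmb3*, the 1 member called higher in the ovary. Of the 5 members called lower in the spleen that had a 3′UTR, only *Kcnh7*, a voltage-gated alpha subunit of the erg family, had it, with 4 sites in 9532 bases on chromosome 2, minus strand. The 4 sites of *Kcnh7* are printed 5′ to 3′ because it was the only called member with the motif, which is in capitals.
Kcnh7 site 1, chr2:62696017-62696045: aauuucugaucUAUUUAUacaugaaaaau
Kcnh7 site 2, chr2:62695681-62695709: aaugacggaaaUAUUUAUuguucgcuaaa
Kcnh7 site 3, chr2:62694254-62694282: cugagccuuccUAUUUAUuugaggaugcu
Kcnh7 site 4, chr2:62693955-62693983: cucacgaauagUAUUUAUuuuguuuguuc

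The shorter motif AUUUA, which lies inside the 7-base one, was in 64.1% of the members with a 3′UTR and in 68.7% of all listed genes with one. *Kcnj5*, on the minus strand of chromosome 9 (32314707 to 32344350), held 1 AUUUA and no UAUUUAU in a 3′UTR of 2873 bases. *Kcnf1*, on the minus strand of chromosome 12 (17172100 to 17176888), held 2 AUUUA and no UAUUUAU in 2601 bases. These sites are shown for the 2 members that were lowest in L2-fKO spleen relative to wild type, again with the motif in capitals. A match or its absence is a description of these letters in 1 annotated 3′UTR per gene.
Kcnj5 site 1, chr9:32314717-32314743: uugaccaauaaAUUUAaaauauagguu
Kcnf1 site 1, chr12:17173817-17173843: auggcucagucAUUUAuugaaggggaa
Kcnf1 site 2, chr12:17172868-17172894: agaagcccaagAUUUAcagagagcuga

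In the spleen, 51 of the 81 members passed the filter on low counts. Of these, 49 had libraries of both genotypes at the filter's 10 counts. The other 2 (*Kcnj5* and *Kcnf1*) passed through the wild-type libraries only, which bound these 2 to differ. *Kcnh7* and *Kcnk12* reached 10 counts in all 4 wild-type libraries but in only 2 and 3 L2-fKO libraries. By edgeR's quasi-likelihood test, 6 members were called lower, *Kcnj5* and *Kcnf1* among them, and 4 higher in L2-fKO. Over all 16911 genes tested, 3.11% were called lower and 2.9% higher. Counting an adjusted p below 0.05 at any fold change, 12 members passed, against 13.4% of all genes. The median log2 fold change was 0.19 over the members tested and -0.02 over all genes. All these counts come from the contrast that the choice of genes used.

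*Kcnj5* encodes a subunit of the G protein-gated inward rectifiers, known from the heart, where it joins the *Kcnj3* product in 1 channel. Its normalised counts were 306.5, 393, 375.7 and 413 in the 4 wild-type spleens. The 4 L2-fKO spleens held 7, 2, 1 and 0 reads of it, a mean of 0.713% of the wild-type normalised count. Every wild-type spleen was far above every L2-fKO spleen, and the fitted log2 fold change was -7.12. It ranged from -8.36 to -6.65 over 14 alternative fits, and with so few reads in L2-fKO it depends on the prior count of the fit.

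Of the other subunits of this channel type, *Kcnj3* was barely detected in the spleen and *Kcnj9* was low. *Kcnj3* had 1, 0, 1 and 1 reads in the wild-type spleens and 0, 0, 0 and 1 in the L2-fKO spleens, too few to compare. *Kcnj9* had 26.4, 30.3, 21.9 and 24.3 normalised counts in wild type and 31.3, 31.0, 31.5 and 37.5 in L2-fKO, with an adjusted p of 0.31 by edgeR's quasi-likelihood test for a log2 fold change of 0.35 (SE 0.22). The genotypes did not overlap for *Kcnj9*, and the difference did not pass the test.

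The 14 megakaryocyte and platelet markers were also lower in L2-fKO spleen, as were the neutrophil markers given below. All 14 were called lower in L2-fKO spleen by edgeR's quasi-likelihood test, with a median log2 fold change of -4.20. The summed level of the 14 was 1149, 1588, 909 and 1355 RPM in wild type and 84.2, 90.2, 87.0 and 94.8 in L2-fKO. Among the wild-type spleens, spleen 3 was the lowest in these markers and spleen 1 in *Kcnj5*. The 14 ranged from 1.13% of the wild-type mean for *Gp6*, the platelet collagen receptor, to 48.9% for *Vwf*. *Itga2b*, a platelet integrin subunit, was at 7.54%, and none of the 14 was at 0 in every library. In RNA from whole tissue, fewer cells of a type and less RNA per cell cannot be told apart. In the ovary 9 of the 14 markers could be tested and none was called, with sums of 101 to 129 RPM in wild type and 88.2 to 139.8 in L2-fKO. The part of these cells in the *Kcnj5* values was not tested.

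**Figure D1:**
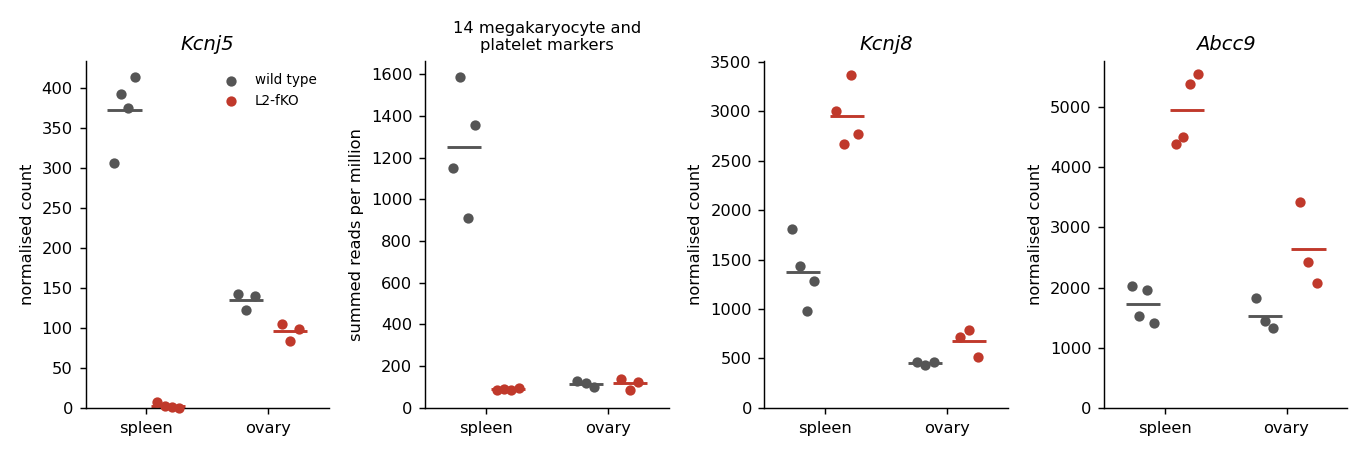
*Kcnj5*, the summed megakaryocyte and platelet markers, *Kcnj8* and its partner *Abcc9* by library (points) with group means (lines), for 4 spleens and 3 ovaries per genotype. The y axes are normalised counts, or summed RPM for the markers, and start at 0; *Kcnj5* is 306.5 or more in every wild-type spleen and nearly absent in L2-fKO spleens, while *Kcnj8* and *Abcc9* are higher in every L2-fKO spleen.

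In the ovary, a contrast that the choice of genes did not use, *Kcnj5* was present in both genotypes. Its normalised counts were 142, 122 and 140.4 in wild type and 105.5, 84.3 and 99.1 in L2-fKO. Each L2-fKO ovary was below each wild-type ovary, at 71.4% of the mean. With 3 libraries against 3, a full separation of any gene cannot go below a two-sided exact p of 0.1. Such an order in the ovary is therefore a description only. The log2 fold change of -0.49 (SE 0.18) had an adjusted p of 0.23 by limma and did not pass the test, with adjusted p from 0.17 to 0.54 over 13 alternatives. *Kcnj3* was the more abundant of the pair there, with 458, 494 and 561.5 normalised counts in wild type and 500, 538 and 419 in L2-fKO. The genotypes overlapped, with a log2 fold change of -0.06 (SE 0.13, adjusted p = 0.86 by limma).

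Besides *Kcnj5*, 2 alpha subunits, 1 Kcnk gene, 1 auxiliary subunit and 1 non-coding RNA were called lower in L2-fKO spleen. *Kcnf1*, a subunit that is silent alone and modifies other voltage-gated channels, had 83.9, 123, 67.6 and 103 normalised counts in wild type and 9.39, 4.43, 3.26 and 5.97 in L2-fKO. No L2-fKO library came near a wild-type one. The fitted log2 fold change was -4.00, given without a p since the gene passed the filter through wild type only. *Kcnh7* had 27.4, 28.3, 76.5 and 37.4 in wild type and 6.26, 9.97, 11.9 and 11.9 in L2-fKO. The log2 fold change was -2.06, given without a p since only 2 L2-fKO libraries reached 10 counts. Wild-type spleen 3 was the high library of its group, and without it the log2 fold change stayed below the limit, since leaving out 1 library gave -2.22 to -1.61.

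*Kcnk12*, a Kcnk subunit that gives little current alone, had 121, 83.8, 117 and 76.8 normalised counts in wild type and 29.2, 41.0, 8.69 and 23.0 in L2-fKO. It fell by 1.97 on the log2 scale, given without a p since only 3 L2-fKO libraries reached 10 counts. *Kcnip2*, a calcium-binding auxiliary subunit of the Kcnd channels, had 60.4, 42.4, 53.7 and 68.7 in wild type and 14.6, 16.6, 27.2 and 12.8 in L2-fKO, a fall of 1.66 (SE 0.29, adjusted p = 0.0062 by edgeR's quasi-likelihood test). Neither gene overlapped between genotypes. The Kcnd genes that *Kcnip2* serves were not called: the log2 fold change was 0.32 for *Kcnd1* and 0.59 for *Kcnd3* (adjusted p = 0.30 and 0.20), and *Kcnd2* was too low to test.

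*Kcnq1ot1* is a long non-coding RNA made from within *Kcnq1* on the opposite strand and known for imprinting of that locus. It had 489.5, 366, 606 and 365 normalised counts in wild type and 109, 140, 191 and 176 in L2-fKO, with a log2 fold change of -1.57 (SE 0.24, adjusted p = 0.0027 by edgeR's quasi-likelihood test). The transcript lies on the minus strand of chromosome 7 (143203458 to 143296549), inside *Kcnq1* on the plus strand (143106362 to 143427042). The spleen reads were counted by strand. *Kcnq1* itself, an alpha subunit of heart and epithelia, was low and called higher in L2-fKO: 18.9, 25.2, 20.9 and 15.2 in wild type and 45.9, 29.9, 38.02 and 64.0 in L2-fKO. The log2 fold change of *Kcnq1* was 1.15 (SE 0.30, adjusted p = 0.031 by edgeR's quasi-likelihood test), and it lost the call without any 1 of wild-type spleens 1, 2 and 4 or of L2-fKO spleens 1 and 4 (log2 fold change 0.92 to 1.28).

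**Figure D2:**
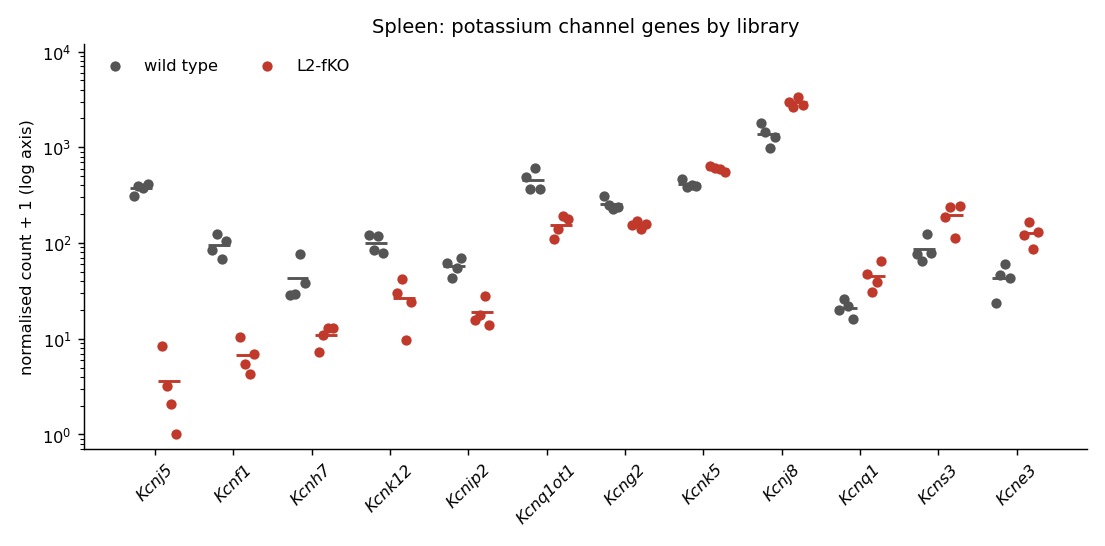
Normalised counts plus 1 (log axis) of the 12 potassium channel genes with an adjusted p below 0.05 or called in the spleen, in 4 wild-type and 4 L2-fKO libraries (points) with group means (lines), ordered by log2 fold change from -7.12 for *Kcnj5* to 1.55 for *Kcne3*. The genotypes overlap for *Kcns3* only, and a point at 1 is a library without a read.

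*Kcne3*, a single-pass auxiliary subunit that holds *Kcnq1* channels open, was also called higher. It had 22.6, 45.5, 59.6 and 42.5 normalised counts in wild-type and 121, 163, 85.8 and 129.6 in L2-fKO spleens. All 4 L2-fKO libraries were higher, with a log2 fold change of 1.55 (SE 0.31, adjusted p = 0.011 by edgeR's quasi-likelihood test). *Kcns3*, a silent subunit like *Kcnf1*, had 75.5, 64.7, 122 and 77.8 in wild type and 188, 239, 112 and 242 in L2-fKO, a log2 fold change of 1.20 (SE 0.29, adjusted p = 0.025). L2-fKO spleen 3 was below wild-type spleen 3, so the genotypes overlapped for *Kcns3*. Its call was lost without any 1 of wild-type spleens 1, 2 and 4 or of L2-fKO spleens 1 and 2, with an adjusted p of 0.056 to 0.081. With sex in the model, 2 members were called higher and neither *Kcnq1* nor *Kcns3* was among them.

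*Kcnj8*, the pore of the ATP-sensitive channel of blood vessel walls, was the most abundant member called. It had 1808, 1438, 978 and 1284 normalised counts in wild-type and 3002, 2666, 3363 and 2766 in L2-fKO spleens, and no L2-fKO library was as low as any wild-type library. The log2 fold change was 1.10 (SE 0.18, adjusted p = 0.0038 by edgeR's quasi-likelihood test), and without wild-type spleen 3 it was 0.97, below the fold limit. *Abcc9*, the sulfonylurea receptor that completes this channel, had 2027, 1529, 1957 and 1408 in wild type and 4377, 4503, 5387 and 5553 in L2-fKO. *Abcc9* rose by a log2 fold change of 1.52 (SE 0.15, adjusted p = 0.000276). Of the 7 smooth muscle and pericyte markers, 2 were called higher, none was at 0 in every library, and their sum was 318 to 441.5 RPM in wild type and 455 to 605 in L2-fKO spleens, without overlap. Their part in the *Kcnj8* values was not tested.

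In the ovary *Kcnj8* was at 466, 434 and 467 normalised counts in wild type and 718, 787 and 511 in L2-fKO. The groups did not overlap, but the log2 fold change of 0.54 (SE 0.16) had an adjusted p of 0.17 by limma. *Abcc9* in the ovary was likewise higher in each L2-fKO library, with a log2 fold change of 0.77 (SE 0.20, adjusted p = 0.12). Neither of this pair passed the test in the ovary.

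An adjusted p below 0.05 within the fold limit was found for 2 further members in the spleen. *Kcnk5*, a leak channel opened by alkaline pH, had 468, 386, 405.5 and 392.1 normalised counts in wild type and 642, 600.4, 596 and 551 in L2-fKO, a log2 fold change of 0.53 (SE 0.12, adjusted p = 0.018 by edgeR's quasi-likelihood test). *Kcng2*, another silent alpha subunit, had 307, 247.5, 228 and 237.5 in wild type and 152, 167, 140.1 and 159 in L2-fKO, a log2 fold change of -0.72 (SE 0.16, adjusted p = 0.016). Both were without overlap between genotypes. *Kcnk5* no longer had an adjusted p below 0.05 when any 1 of wild-type spleens 2 and 4 and L2-fKO spleens 1 and 2 was left out, with values of 0.0616 to 0.0715. The same held for *Kcng2* when L2-fKO spleen 1 was left out (0.0585) and with male libraries alone (0.0523).

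Other marker lists moved with genotype in the spleen. All 10 neutrophil markers were called lower, with sums of 3780.0 to 6543 RPM in wild type and 228 to 1435 in L2-fKO. Of the 8 mast cell markers, 5 were called higher and 1 lower, with sums of 90.9 to 129 and 70.1 to 421.5. Pancreatic acinar markers, with 4 of the 5 tested called lower, varied from 39.8 to 594 among the wild-type spleens and from 32.9 to 45.8 among the L2-fKO spleens, and no acinar marker was at 0 in every library. Of the other blood and stroma lists, 1 of 8 macrophage and 2 of 6 fibroblast markers were called higher and 1 of 6 natural killer cell markers lower, and none of the B cell, T cell, erythroid or endothelial markers was called. Neuron and Schwann markers, with 1 of the 4 tested called higher, summed to 8.285 to 10.4 RPM in wild type and 12.5 to 17.2 in L2-fKO. The part of any of these lists in the potassium channel values was not tested.

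The spleen counts by channel class describe the contrast that the choice of genes used. Over all genes tested there, 2.9% were called higher and 3.11% lower, and nothing is read from the class counts. Of 23 alpha subunits tested, 2 were called higher and 2 lower, 1 of the latter being *Kcnf1*. Of 8 auxiliary subunits, 1 was called in each direction. Of 7 inward rectifiers, 1 was called higher, and the 1 lower was *Kcnj5*, on which the group was chosen. Of 6 Kcnk genes 1 was called lower, and none of the 6 calcium-activated genes tested was called, with log2 fold changes of -0.46 to 0.81 and 1 of the 6 at an unadjusted p below 0.05. The summed level of the inward rectifiers was 79.5 ± 13.1 RPM in the wild-type spleens against 119.6 ± 21.6 RPM in those of L2-fKO (SD, n = 4 each). Their ranges, 66.1 to 92.8 and 103 to 151, did not overlap, with *Kcnj8* and *Kcnj10* as the most abundant members. The calcium- and sodium-activated class, nearly all *Kcnn4*, was at 280.5 ± 32.7 and 246 ± 41.8, with overlap.

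**Figure D3:**
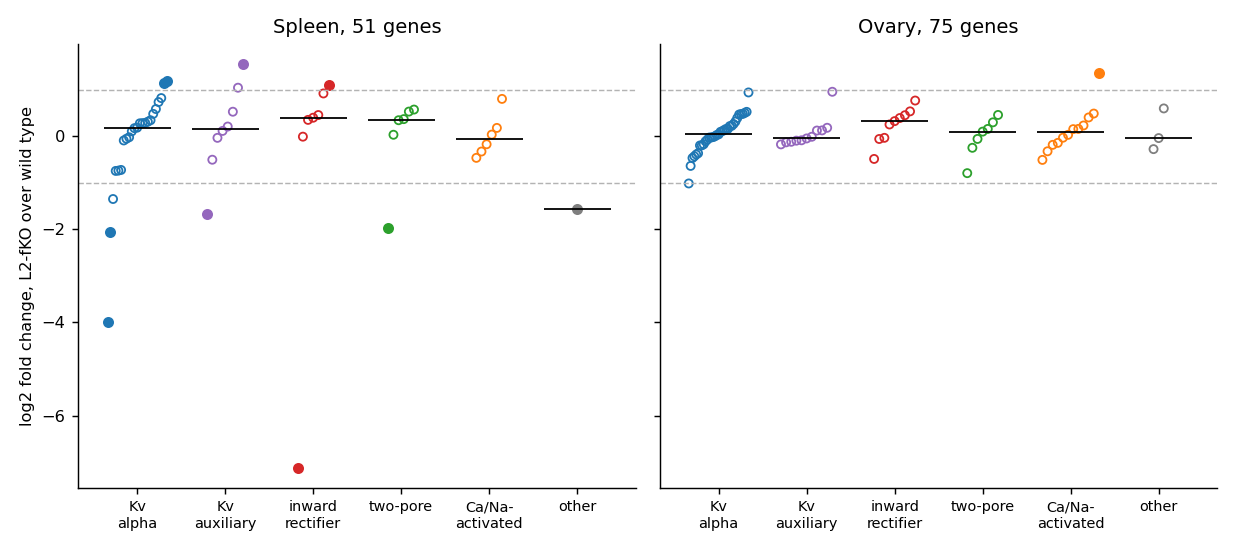
Log2 fold change, L2-fKO over wild type, of each potassium channel gene tested, by class, in spleen (51 genes, left) and ovary (75 genes, right). Filled points were called, lines are class medians and dashed lines mark the fold limit of 1; the 10 filled spleen points include *Kcnj5*, on which the group was chosen, and the ovary has 1 call.

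In the ovary all 75 listed members were tested, 73 of which passed the filter in both genotypes, 1 (*Kcnv2*) through wild type only and 1 (*Kcnj13*) through L2-fKO only. By limma, 1 member was called higher and none lower. Of all 18504 genes tested, 0.73% were called higher and 0.227% lower, and 1.58% had an adjusted p below 0.05 at any fold change, which among the members held for 1 gene. At an unadjusted p below 0.05 there were 12 members of 75 and 3114 of all genes. No member was called lower by edgeR or DESeq2 on the recovered reads either. The median log2 fold change was 0.04 over the members and 0.00 over all genes (-0.0042).

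The called gene was *Kcnmb3*, an auxiliary beta subunit of the large-conductance calcium-activated channel whose pore is *Kcnma1*. It lies on the minus strand of chromosome 3 (32471588 to 32492231). Its normalised counts were 58.4, 96.9 and 73.4 in wild-type and 179, 206.5 and 196 in L2-fKO ovaries, 76.2 ± 19.4 against 194 ± 13.96 (SD, n = 3). All 3 L2-fKO ovaries were above all 3 wild-type ovaries, with a log2 fold change of 1.36 (SE 0.22, adjusted p = 0.031 by limma). The call was lost without any 1 of the 3 wild-type ovaries or of L2-fKO ovaries 1 and 3 (adjusted p 0.069 to 0.14), and kept without L2-fKO ovary 2, while the log2 fold change stayed between 1.19 and 1.55. In the spleen *Kcnmb3* had 6 or fewer reads per library.

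The pore-forming partner *Kcnma1* had 1213, 1227 and 1223 normalised counts in wild-type and 1768, 1939 and 1238 in L2-fKO ovaries. The genotypes did not overlap, but L2-fKO ovary 3 was close to the wild-type values. The means were 1221 and 1648, with a log2 fold change of 0.41 (SE 0.16) and an adjusted p of 0.26 by limma. The other beta subunits were at log2 fold changes of -0.14 for *Kcnmb1*, 0.49 for *Kcnmb2* and -0.32 for *Kcnmb4*, none with an adjusted p below 0.5. Among these subunits only *Kcnmb3* passed the test. The members called in the spleen and listed in the ovary were all between -0.49 and 0.54 there. *Kcnf1*, which was nearly absent from L2-fKO spleens, had 121, 370 and 82.0 normalised counts in the 3 L2-fKO ovaries and 91.3, 134 and 105 in wild type. L2-fKO ovary 2 was the high library, and the genotypes overlapped. Granulosa cell markers summed to 2270.0 to 2410.0 RPM in wild-type ovaries and to 1948, 1027 and 2234 in the L2-fKO ovaries, so that L2-fKO ovary 2 was also the lowest in these. Among other lists, that library was the lowest in theca, smooth muscle, oocyte, megakaryocyte, natural killer cell and pancreatic endocrine markers. It was the highest in mast cell (529.5 RPM), ovary surface and oviduct epithelium (601.8), neuron and Schwann (153.9), B cell and T cell markers. Other lists also stood apart between the genotypes in the ovary. T cell markers summed to 4.27 to 5.15 RPM in wild type and 8.78 to 11.8 in L2-fKO, with 1 of the 4 tested called higher by limma. Macrophage markers summed to 65.5 to 78.7 and 87.2 to 109.4, endothelial markers to 333 to 350.4 and 398 to 456, and pancreatic acinar markers to 44.2 to 52.0 and 23.9 to 27.3, with no gene of these 3 lists called. The part of any of these lists in the ovary channel values, *Kcnmb3* included, was not tested.

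The potassium transport genes outside the Kcn group were taken from a list of 32, among them sulfonylurea receptors, pacemaker channels, sodium pumps and cation-chloride cotransporters. In the spleen 23 could be tested and 2 were called, beside 2.9% of all genes called higher and 3.11% lower. *Abcc9* was the one called higher, and *Atp4a*, the catalytic subunit of the gastric proton pump, was lower, from 94.3, 48.5, 45.7 and 55.6 normalised counts to 11.5, 16.6, 5.43 and 8.53 (log2 fold change -2.53, SE 0.38, adjusted p = 0.0027 by edgeR's quasi-likelihood test). In the ovary 25 could be tested and *Hcn2*, a pacemaker channel opened by hyperpolarisation, was called higher, from 173, 180.5 and 240.4 to 381, 589 and 473 (log2 fold change 1.27, SE 0.20, adjusted p = 0.030 by limma). None of these 3 genes overlapped between genotypes. The other 21 tested in the spleen and 24 tested in the ovary were not called. Of all genes tested in the ovary, 0.73% were called higher and 0.227% lower. These few calls are not read as a trait of the list.

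The wild-type tissues differed in which channels they held. The 2 tables were normalised separately, so no test was made and the order of libraries is a description. Of the 46 members in both tables, 28 had every wild-type ovary above every wild-type spleen in RPM, 9 had every spleen above every ovary and 9 overlapped. Over the 15300 genes in both tables, 53.6% had every ovary above and 24.3% every spleen above. At 1 RPM or more on average there were 30 members in wild-type spleen and 56 in wild-type ovary. RPM over each table's own genes gave the same 28 and 9 counts.

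The spleen was led by few genes. Per kilobase, *Kcnn4*, the calcium-activated channel known from red cells and lymphocytes, was highest at 54.1 ± 6.41 (SD, n = 4) RPM per kilobase, followed by *Kcnj8* at 12.7 ± 3.35 and *Kcnab2*, a beta subunit of Kcna channels, at 12.04 ± 2.23. The latter 2 differed by less than their spread. *Kcnk6*, a leak channel, followed at 5.71 ± 1.57 and *Kcnj10*, an inward rectifier known from glia, at 5.53 ± 0.965, again within their spread. The genotypes overlapped for *Kcnn4*, at 9627 to 14000.0 normalised counts in wild-type and 7021 to 13500.0 in L2-fKO spleens (log2 fold change -0.17, adjusted p = 0.61 by edgeR's quasi-likelihood test).

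In the ovary no gene stood out in this way. *Kcnh2*, the erg channel of the heart action potential, and *Kcnip3*, a calcium-binding partner of Kcnd channels that also binds DNA, were highest at 14.4 ± 1.09 and 14.04 ± 1.02 (SD, n = 3) RPM per kilobase, which is within their spread. *Kcnk5* at 11.4 ± 0.645 and *Kcnk2*, a leak channel gated by stretch and lipids, at 10.2 ± 0.505 came next, and *Kcnk1*, another leak channel, was at 7.08 ± 0.753. Of these 5 genes *Kcnk1* and *Kcnk2* were higher in every L2-fKO ovary, with log2 fold changes of 0.46 and 0.30, and *Kcnk5* was lower in every one (-0.25). None of the 3 passed the test, with adjusted p of 0.13, 0.087 and 0.28 by limma, and their orders of 3 against 3 libraries are not read as results.

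The largest ratios in favour of the spleen were those of *Kcnn4*, with 277 RPM in wild-type spleen and 0.862 in wild-type ovary, and *Kcnj10*, with 29.9 and 0.288. *Kcnab2* followed with 67.2 and 5.12. The Kcna subunits *Kcna3*, known from T cells, with 2.22 and 0.381, and *Kcna2*, with 11.6 and 2.20, were next. *Kcnj5* was at 8.69 ± 0.851 (SD, n = 4) in wild-type spleen and 3.75 ± 0.316 (SD, n = 3) in wild-type ovary, with each spleen above each ovary. Of the 5 inward rectifiers in both tables, 3 (*Kcnj5*, *Kcnj8* and *Kcnj10*) were higher in every spleen and none in every ovary. Over all genes in both tables, 24.3% had every spleen above and 53.6% every ovary above. *Kcnj3*, *Kcnj12*, *Kcnj13* and *Kcnj14* were listed for the ovary only and had higher means there, and *Kcnj9* and *Kcnj16* were listed for the spleen only. The summed level of the class was 66.1 to 92.8 RPM in wild-type spleens, mostly *Kcnj8* and *Kcnj10*, and 32.7 to 37.97 in wild-type ovaries.

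The alpha subunits, auxiliary subunits and Kcnk genes summed higher in the ovary. Alpha subunits summed to 54.8 ± 9.83 (SD, n = 4) RPM in wild-type spleen and 283 ± 17.3 (SD, n = 3) in wild-type ovary. Of the 21 in both tables, 12 were higher in every ovary and 3 in every spleen. Over all genes in both tables these shares were 53.6% and 24.3%, so the counts by class are not read as a trait of the class. Auxiliary subunits summed to 79.2 ± 13.3 and 106 ± 5.02, and Kcnk genes to 47.1 ± 8.41 and 142 ± 3.77. The calcium- and sodium-activated class was higher in the spleen, at 280.5 ± 32.7 against 119.4 ± 6.67, with *Kcnn4* as nearly all of it, although 5 of its 6 genes in both tables were higher in every ovary. *Kcns2*, a silent alpha subunit, had 4.36 RPM in wild-type ovary and no read in any wild-type spleen, so no ratio was formed. Among genes with a spleen read, the largest ratios in favour of the ovary were those of *Kcnt1*, a sodium-activated channel, *Kcnk2*, *Kcnj3*, *Kcnk18*, a leak channel of sensory neurons, and *Kcnd2*, an alpha subunit of fast-inactivating currents. These 5 had 39.5, 50.4, 14.02, 7.75 and 17.3 RPM in the ovary in that order, and under 0.1 in each wild-type spleen. None was in the spleen table.

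**Figure D4:**
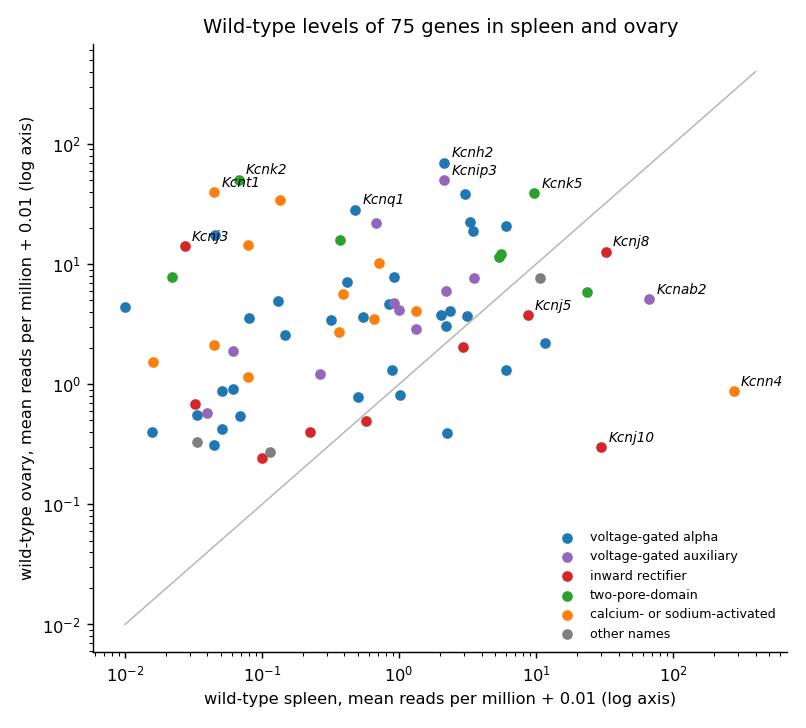
Mean RPM plus 0.01 in wild-type spleen (x axis, 4 libraries) and wild-type ovary (y axis, 3 libraries) of the 75 potassium channel genes in the ovary table, both on log axes, coloured by class, with a line of equal level. *Kcnn4* lies farthest to the right at 277 in the spleen and 0.862 in the ovary, and *Kcnt1* and *Kcnk2* lie at the upper left.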

How the data were processed

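Libraries were prepared by the authors with poly(A) selection. For the spleen, the authors removed adapters and poor bases (Trimmomatic 0.36), aligned the reads to GRCm38 (STAR 2.5.2b) and took strand-aware counts of unique exon reads (Subread 1.5.2). What they deposited for it are raw counts, whole numbers per gene, and a normalised table that was not needed. For the ovary the authors deposited normalised signal, counts divided by 1 size factor per library, and the processing notes name the same tools. Reads were recovered from them within 0.001 of a whole number and used for levels and as an alternative. The comparison tables also hold the authors' log2 fold changes and p-values from DESeq2, which were not used. The tables gave the gene names.

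Spleen genes reaching 10 counts in 4 or more libraries were tested with edgeR 4.0.16 (quasi-likelihood, TMM normalisation), and the normalised counts printed for the spleen are counts scaled to the mean TMM-adjusted library size. Ovary genes reaching a value of 10 in 3 or more libraries were tested with limma 3.58.1 (intensity trend) on log2(value + 1), so that folds of low genes are understated. P-values were Benjamini-Hochberg adjusted over all genes tested. The SE printed for the spleen is the absolute log2 fold change divided by the square root of the quasi-likelihood F statistic. R 4.3.3, DESeq2 1.42.0 and Python 3.11.15 were also used, and the fits were tested on simulated data. Lengths, positions and 3′UTRs are from GENCODE M21. Depth (given with the results) leaves genes of few reads imprecise.

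The genes named were *Kcnj5* and its family, every member called, the 5 highest per kilobase in each tissue, the 5 largest ratios each way between tissues at 1 RPM or more, up to 5 per tissue with an adjusted p below 0.05 within the fold limit, *Zfp36l2*, and the related genes called. A few partners of these genes (*Kcnd1*, *Kcnd3*, *Kcnma1* and the other Kcnmb genes, *Kcnv2* and *Kcnj13* at the filter, and *Kcns2*) were named after their values were seen. The members, lists and tests were chosen with earlier results of these data known.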

Additional observations from a re-analysis of the deposited data

Results flagged for a closer look

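In the L2-fKO spleens 2 members had 1 library far from the other 3 among the 42 groups of 4 spleens examined, and chance alone sets apart about 1 in 20 groups. *Kcna2*, a voltage-gated alpha subunit, had 1360.0 normalised counts in L2-fKO spleen 4 against 593 to 689 in the other 3. *Kcnj9* had 37.5 in the same library against 31.0 to 31.5 in the others, a difference of few reads. The same library was the highest L2-fKO spleen in summed macrophage (2709 RPM), endothelial (922) and T cell (303) markers. It was also the highest in B cell, natural killer cell, mast cell, smooth muscle, fibroblast and megakaryocyte markers, and the lowest in erythroid markers (9575). The part of these lists in the *Kcna2* and *Kcnj9* values was not tested.

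For *Kcnk5* the libraries of the tissues were ordered in opposite ways: each L2-fKO spleen was above each wild-type spleen (log2 fold change 0.53) and each L2-fKO ovary was below each wild-type ovary (-0.25). *Kcnk5* was picked out of the 46 members tested in both tissues, and its ovary change did not pass the test (adjusted p = 0.28 by limma). The difference between the tissues was not tested.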

How the results depend on the processing

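In the spleen the 4 members called higher became 2 with sex as a covariate and 2 with the replicate number as a block, and 2 to 4 when 1 library was left out (the low count came from omitting wild-type 1, 2 or 4, or L2-fKO 1). In each of the fits with 2, *Kcnq1* and *Kcns3* were the calls lost. Male libraries alone gave 3 higher and 6 lower. The 6 members called lower became 2 under a minimum of 10 counts in all 8 libraries, which removes *Kcnj5*, *Kcnf1*, *Kcnh7* and *Kcnk12* from the test, and were 6 to 7 when 1 library was left out. With no filter 6 were called higher. In the ovary the 1 member called higher became 2 with DESeq2 on recovered reads and 0 to 1 when 1 library was left out, and none was called lower under the 14 alternatives. *Kcnj3* in the ovary, at -0.06, was between -0.1344 and 0.046 when 1 library was left out, and above 0 without wild-type ovary 3 (0.02) and L2-fKO ovary 3. Of 258 alternatives for the 18 single-gene values, 235 kept direction and side of the threshold (adjusted p and fold limit together), 21 lost a call and 2 reversed, and these 2 are those of *Kcnj3*.

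The replicate block used the numbers of the labels, with 1 exception. The labels give the number 3 to 2 wild-type spleens, and the male library of these 2 was given the next number here. The last of the spleen r values below (-0.293) and the spleen fits with the block rest on that assigned number. Same-numbered libraries deviated together with r of -0.135, 0.0936, 0.179 and -0.293 in the spleen and 0.382, 0.211 and 0.0723 in the ovary, and neither the labels nor the methods say whether the numbers mark the age-matched pairs, so the pairing was not taken as given. With the block, 2 members were higher and 6 lower in the spleen, and 1 higher and 0 lower in the ovary. Each L2-fKO ovary correlated best with the wild-type ovary of its own number, wild-type ovary 3 did not, and in the spleen not every library did. The block also took the adjusted p of *Kcng2* to 0.0632 and of *Kcnk5* to 0.0635.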
